A study of Mus musculus with 5 samples.

Results

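The transcription factors Mycn, Isl1, Phox2a, Hand2, Gata2, Gata3, Tbx2 and Sox11 form much of the core regulatory circuit of adrenergic neuroblastoma, a tumour of the sympathetic nervous system. They were chosen by name, 8 genes of the 54838 listed per library, and all 8 were among the 14868 genes that passed the filter on low reads. Their RNA was measured in N2a cells, an established mouse neuroblastoma line, after knockdown of Ewsr1, which encodes an RNA- and DNA-binding protein. The siEwsr1 group (n = 3 libraries) was transfected with an siRNA against Ewsr1 and the siCtrl group (n = 2 libraries) with a control siRNA, in each case 50000 cells in a double lipid transfection. Cells were harvested 24 hours after the second pulse, and the siRNA concentration is stated as 100 µM. Both groups are the same line with no other genetic change in the labels. Total RNA was depleted of ribosomal RNA and 2 µg went into each stranded library. Nothing in the labels tells whether the libraries of a group are separate cultures, and p-values cover only the spread among these 5 libraries, which may be technical.

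In a core regulatory circuit, a few lineage factors bind each other's enhancers as well as their own, and so hold a cell in one identity. In sympathetic neuroblasts the circuit is built on homeodomain factors such as Phox2a, the bHLH factor Hand2, the zinc-finger factors Gata2 and Gata3, and the LIM-homeodomain factor Isl1. Tbx2 and Sox11 belong to the adrenergic circuit of human neuroblastoma. MYCN, amplified in high-risk human tumours, drives growth genes as a dimer with Max and occupies enhancers of the same circuit.

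The libraries held 15045774, 21339459 and 17475740 counted reads in siEwsr1 and 15766280 and 17314511 in siCtrl. Levels are RPKM, reads scaled to exonic length and to the counted reads of the library, and each deposited value of 1 or more had lost its decimal point, which was restored before use. Ewsr1 itself stood at 35.7, 36.3 and 37.6 RPKM in siEwsr1 and at 71.7 and 72.3 RPKM in siCtrl, a log2 fold change of -0.96 ± 0.08 (SE). Over all tested genes, 366 (2.46%) were called higher and 396 (2.66%) lower in siEwsr1, together 5.13%, with limma and a Benjamini-Hochberg adjusted p under 0.05. On the first principal component, which held 45.3% of the variance, siEwsr1 replicate 3 lay at -0.27, between the other siEwsr1 libraries at 16.4 and 33.8 and the siCtrl libraries at -21.3 and -28.7. Without it 1873 genes were called higher and 1887 lower. Leaving out siEwsr1 replicate 1 gave 45 and 66, and leaving out siCtrl replicate 1 or 2 gave 8 and 3 or 3 and 3. Of 11 sympathetic neuroblast markers all 11 passed the filter, with summed levels of 1146 to 1259 RPKM in siEwsr1 and 1135 to 1185 RPKM in siCtrl. Phox2a, itself a member, is among these markers. Most of the sum is Chgb and Prph, whose log2 fold changes were 0.45 and -0.39. Th, the first enzyme of catecholamine synthesis, was near 1 RPKM (0.971 ± 0.126 RPKM in siEwsr1, n = 3, and 0.668 ± 0.0804 RPKM in siCtrl, n = 2, SD). The Schwann lineage markers Sox10, S100b, Foxd3 and Cdh19, the endothelial receptor Kdr and the fibroblast collagen Col3a1 were listed at 0 in every library.

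All 8 factors were expressed. None met the rule for a gene not expressed, fewer than 10 reads, scaled to the median library size, in 4 or more of the 5 libraries, and the lowest read number of any member in any library was 131. Hand2 was far above the others, at 99.9 ± 6.02 RPKM in siEwsr1 (SD, n = 3) and 87.0 ± 3.01 RPKM in siCtrl (SD, n = 2). In siEwsr1 the order below it was Phox2a, Sox11, Isl1, Tbx2, Gata2 and Mycn, and the library ranges of each neighbouring pair in this stretch overlapped. In siCtrl the order was Sox11, Phox2a, Tbx2, Gata2, Isl1 and Mycn, and there Sox11 and Phox2a overlapped, as did Tbx2 and Gata2, while the other neighbours did not. Gata3 was last in both groups, at 2.25 ± 0.279 RPKM in siEwsr1 and 2.65 ± 0.337 RPKM in siCtrl. By its siCtrl level Hand2 stood above 96.5% of all tested genes, Sox11 above 75.7%, Mycn above 59.1% and Gata3 above 37.0%.

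**Figure D1:**
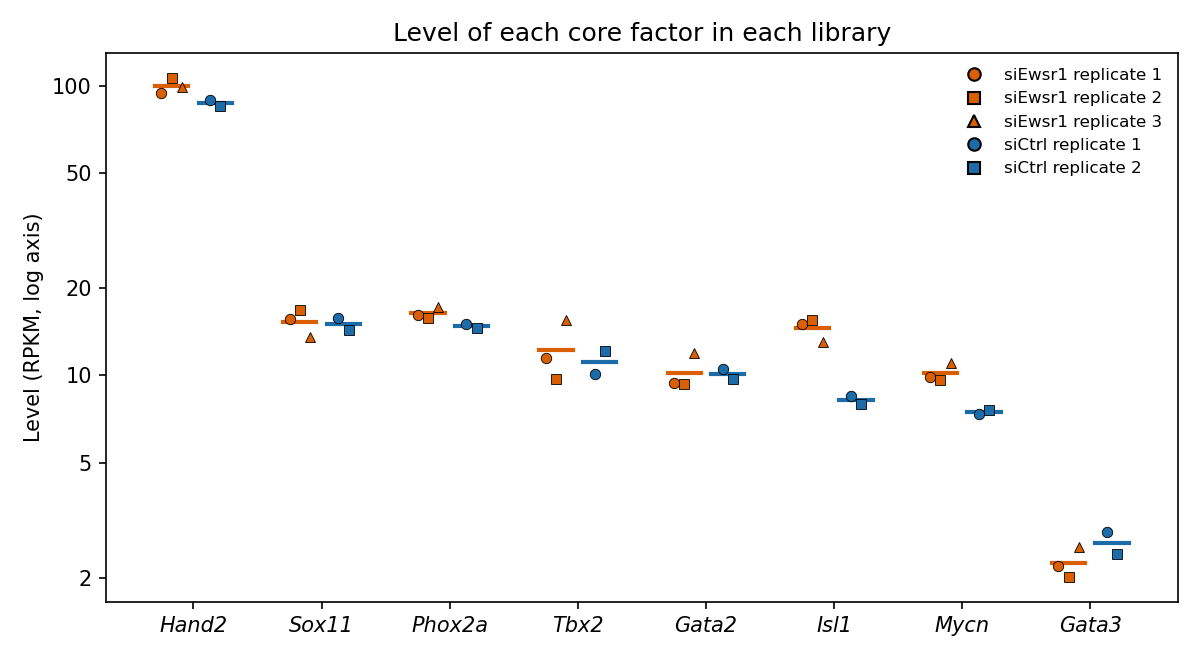
Level of each core factor (RPKM, log axis) in each library, with siEwsr1 in orange and siCtrl in blue; horizontal bars are group means. Isl1 and Mycn lie clear of the siCtrl points, Hand2 is the most abundant at 84.8 to 106 RPKM, and Gata3 stays between 2.01 and 2.89 RPKM.

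After Ewsr1 knockdown, 2 of the 8 factors rose, Isl1 and Mycn, none fell, and 6 did not pass the test. The share of all tested genes called higher was 2.46%. At an unadjusted p under 0.05 in the same limma fit, 3 members were higher and 0 lower. At that threshold 1665 of the 14868 tested genes were higher and 1628 lower. In 4 members, Isl1, Mycn, Hand2 and Phox2a, each siEwsr1 library was above both siCtrl libraries, which was also true of 18.6% of all tested genes, and no member had each siEwsr1 library below both, which 21.3% of tested genes did. The median log2 fold change was 0.15 over the 8 members and -0.01 over all tested genes. For a single gene an exact permutation test of 3 against 2 libraries cannot go below p = 0.1, so every call rests on the fit across genes. In bulk RNA, a change in the share of cells that express a gene and a change of RNA per cell cannot be told apart.

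Isl1 directs the differentiation of sympathetic and motor neurons and had the largest change of the 8 (ENSMUSG00000042258, chromosome 13, 116298281 to 116309689, minus strand, GRCm38). Its level was 15.1, 15.6 and 13.1 RPKM in siEwsr1 and 8.46 and 7.97 RPKM in siCtrl, from 899, 1314 and 903 reads and from 528 and 546 reads. The groups did not overlap, and siEwsr1 replicate 3 was the lowest of the siEwsr1 libraries. The means were 14.6 ± 1.33 RPKM in siEwsr1 (SD, n = 3) and 8.21 ± 0.349 RPKM in siCtrl (SD, n = 2). The log2 fold change on the log2(RPKM + 0.1) scale was 0.84 ± 0.11 (SE), or 78.8% more RNA, with an adjusted p of 0.00398 (limma). In size it ranked 47 of the 366 genes called higher. Leaving out siCtrl replicate 1 or 2, where the lone control is assumed to vary like the other group, gave 0.89 (adjusted p = 0.0811) and 0.78 (adjusted p = 0.132).

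Mycn, the MYC family factor, moved less (ENSMUSG00000037169, chromosome 12, 12936093 to 12941914, minus strand). It was measured at 9.88, 9.64 and 11.0 RPKM in siEwsr1 and at 7.33 and 7.57 RPKM in siCtrl, from 490, 678 and 635 reads and from 381 and 432 reads. All siEwsr1 libraries were above both siCtrl libraries, and here siEwsr1 replicate 3 was the highest. The means were 10.2 ± 0.740 RPKM in siEwsr1 (SD, n = 3) and 7.45 ± 0.168 RPKM in siCtrl (SD, n = 2). This was a log2 fold change of 0.47 ± 0.11 (SE), or 38.1% more RNA, with an adjusted p of 0.0375 in limma, which ranked 268 of the 366 genes called higher. The call was close to the threshold: in 10 of 19 alternative settings the adjusted p passed 0.05, while the log2 fold change itself stayed between 0.41 and 0.50. That p in limma was 0.296 and 0.361 with siCtrl replicate 1 or 2 left out, and 0.159 with siEwsr1 replicate 1 left out.

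**Figure D2:**
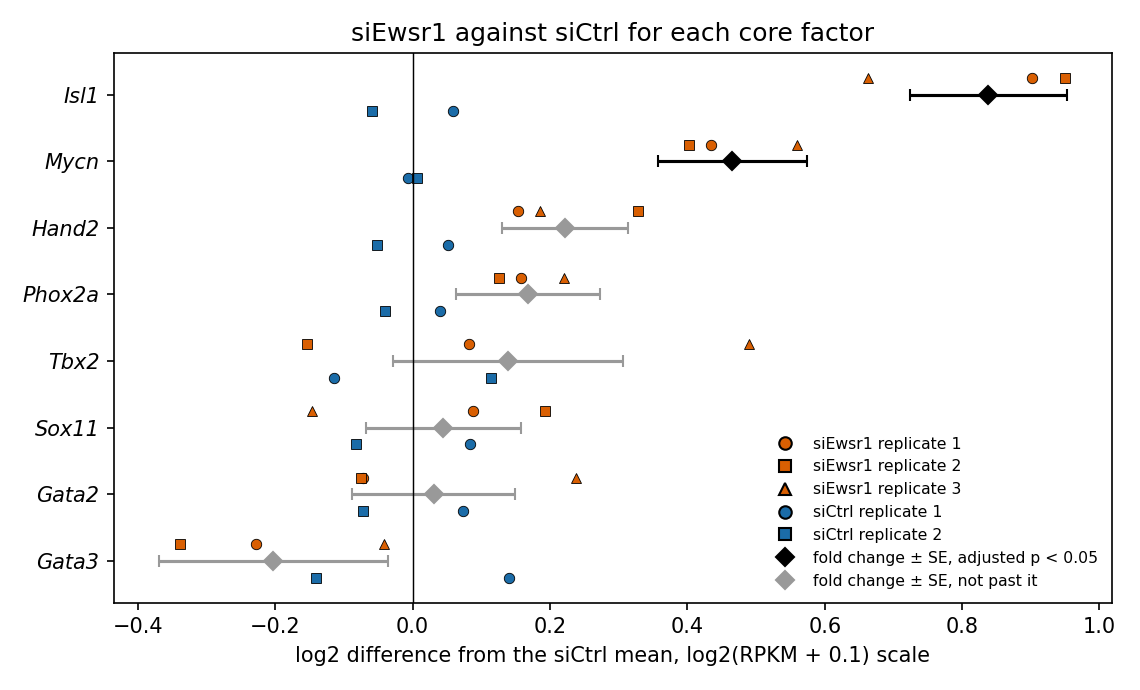
log2 difference from the siCtrl mean for each core factor on the log2(RPKM + 0.1) scale, with single siEwsr1 libraries above each line in orange, siCtrl libraries below it in blue, and diamonds for the limma fold change ± SE. Isl1 (0.84) and Mycn (0.47) are in black as called; the points of Tbx2, Sox11, Gata2 and Gata3 mix between groups.

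The siRNAs themselves are part of the contrast, because an siRNA can also lower messages whose 3′ UTR pairs with the seed of its guide strand. The sources used here do not give the sequence of either siRNA. An earlier scan of these same fold changes picked out 7-mers in 3′ UTRs that went with the direction of change, so their shares below describe these libraries and are no independent evidence. Among 11866 tested genes with a 3′ UTR in GENCODE M21, TCACTGC was present in 14.3%. Of its 1695 carriers 8.08% were called higher in siEwsr1, against 2.08% of the other genes. The 7-mer GCAATTT was present in 8.42%. Of its 999 carriers 9.11% were called lower, against 2.35% of the others.

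Both called members carry TCACTGC, and so does 1 member that was not called. Isl1 has 2 matches in a 3′ UTR of 1199 bases, Mycn 1 match in 913 bases and Gata3 1 match in 1292 bases. The matches are shown with 10 bases on each side, 5′ to 3′ on the transcript strand, with the 7-mer in capitals; positions are GRCm38, minus strand.
Mycn, chr12:12936970-12936996: acacggacagTCACTGCcactttgcac
Isl1, chr13:116299084-116299110: cgttttcattTCACTGCacatctagag
Isl1, chr13:116299004-116299030: tctatattggTCACTGCcttgccaaac
Gata3, chr2:9857132-9857158: gtattagtgaTCACTGCctttaaacag
Gata3, with the same 7-mer, had a log2 fold change of -0.20 ± 0.17 (SE). GCAATTT occurs once in the 3′ UTR of Hand2 and 2 times in that of Sox11, at log2 fold changes of 0.22 and 0.04, and neither was called lower. Phox2a, Gata2 and Tbx2 carry neither 7-mer. Whether these sites have a part in the higher Isl1 and Mycn levels was not tested.

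The Mycn promoter carries E2F-type motifs, and E2F factors are known to bind the promoter of human MYCN. The 172 bases before the GENCODE gene are shown from RefSeq (GRCm38.p6, minus strand), with each TTTGGCGC in capitals.
Mycn, chr12:12941915-12942086: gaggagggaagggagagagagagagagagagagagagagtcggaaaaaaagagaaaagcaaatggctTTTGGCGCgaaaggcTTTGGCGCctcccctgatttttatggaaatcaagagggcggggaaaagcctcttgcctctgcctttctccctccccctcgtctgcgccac
There are 2 matches to TTTGGCGC, a letter string searched on both strands after this sequence had been read, and 0.417% of 32851 RefSeq promoters hold it in the 250 bases before the start. The Myc-Max E-box CACGTG, present in 6.02% of promoters, has no match there. In the 250 bases of Isl1, Phox2a, Gata2, Gata3 and Sox11 neither CACGTG, the GATA-type string AGATAA, the Hand-type E-box CATCTG nor TTTGGCGC was matched.

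Hand2, the bHLH factor needed for noradrenergic differentiation, did not pass the test (ENSMUSG00000038193, chromosome 8, 57320983 to 57324633, plus strand). It had 94.6, 106 and 98.8 RPKM in siEwsr1 and 89.1 and 84.8 RPKM in siCtrl. The groups did not overlap, but the lowest siEwsr1 library was close to the highest siCtrl library. The log2 fold change was 0.22 ± 0.09 (SE) with an adjusted p of 0.192 in limma, and without siEwsr1 replicate 3 it was 0.24 with an adjusted p of 0.0208. In siEwsr1 replicates 2 and 3 its reads, 5340 and 4060, end in 0, so a decimal position 1 lower also gives whole reads there. The higher position was taken because it brings the libraries together, and the lower one would turn the fold change to -1.98 with an SE of 1.23.

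Hand2os1, the long non-coding RNA antisense to Hand2, rose (ENSMUSG00000100510, chromosome 8, 57281117 to 57324233, minus strand). Its level was 17.7, 18.1 and 16.1 RPKM in siEwsr1 and 11.0 and 12.2 RPKM in siCtrl, with no overlap. The log2 fold change was 0.60 ± 0.09 (SE) with an adjusted p of 0.00789 in limma. It runs across most of the Hand2 gene, and 461 of the 2351 exonic bases of Hand2 are exonic in Hand2os1 too. The kit keeps strand, but the sources used here do not give the strand setting of the counting, so over those bases reads of the 2 genes may not have been told apart. Whether the change of Hand2os1 and that of Hand2 differ from each other was not tested.

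Of the promoter windows read, those of all members but Tbx2, that of Hand2 alone holds the exact strings AGATAA and CATCTG on either strand. Other forms of the GATA motif were not searched, and the windows of Isl1 and Sox11 hold TGATAA. The 250 bases before the start are shown from RefSeq (GRCm38.p6, plus strand), with CATCTG and TTATCT, the reverse complement of AGATAA, in capitals.
Hand2, chr8:57320733-57320982: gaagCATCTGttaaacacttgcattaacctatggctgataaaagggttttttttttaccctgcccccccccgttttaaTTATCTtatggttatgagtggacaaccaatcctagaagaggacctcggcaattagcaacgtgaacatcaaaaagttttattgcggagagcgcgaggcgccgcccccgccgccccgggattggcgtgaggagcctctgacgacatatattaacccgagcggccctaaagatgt
Of the 32851 RefSeq promoters 9.99% hold AGATAA and 14.4% hold CATCTG on either strand, so such matches are common.

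Phox2a, which switches on the noradrenaline-synthesising enzymes, showed a small difference that did not pass the test (ENSMUSG00000007946, chromosome 7, 101818313 to 101822726, plus strand). It had 16.2, 15.8 and 17.3 RPKM in siEwsr1 and 15.1 and 14.6 RPKM in siCtrl. The groups did not overlap. It gave a log2 fold change of 0.17 ± 0.10 (SE) with an adjusted p of 0.380 in limma. On its other strand Inppl1, a lipid phosphatase gene, shares 95 exonic bases with it and was at -0.10 (adjusted p = 0.655, limma).

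Tbx2, a T-box repressor that restrains senescence genes, had the widest spread within the siEwsr1 group relative to its mean (ENSMUSG00000000093, chromosome 11, 85832551 to 85841948, plus strand). It had 11.5, 9.71 and 15.6 RPKM in siEwsr1 and 10.1 and 12.1 RPKM in siCtrl. The groups overlapped, with siEwsr1 replicate 2 lowest and siEwsr1 replicate 3 highest of all 5. Its log2 fold change was 0.14 ± 0.17 (SE) with an adjusted p of 0.669 in limma, and without siEwsr1 replicate 3 it was -0.04.

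Sox11, a SoxC factor of immature neurons, was level between the groups within its spread (ENSMUSG00000063632, chromosome 12, 27334264 to 27342574, minus strand). It had 15.6, 16.8 and 13.6 RPKM in siEwsr1 and 15.7 and 14.3 RPKM in siCtrl. Its log2 fold change was 0.04 ± 0.11 (SE) with an adjusted p of 0.857 in limma. In siEwsr1 replicate 3 its 1970 reads end in 0, so the decimal position was settled there as for Hand2.

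Gata2 and Gata3, zinc-finger factors of the sympathetic and haematopoietic lineages, did not pass the test either. Gata2 (ENSMUSG00000015053, chromosome 6, 88193891 to 88207032, plus strand) had 9.38, 9.33 and 11.9 RPKM in siEwsr1 and 10.5 and 9.69 RPKM in siCtrl. The siEwsr1 libraries lay on both sides of the siCtrl libraries, at a log2 fold change of 0.03 ± 0.12 (SE) and an adjusted p of 0.913 in limma. Gata3 (ENSMUSG00000015619, chromosome 2, 9857078 to 9890034, minus strand) had 2.19, 2.01 and 2.56 RPKM in siEwsr1 and 2.89 and 2.41 RPKM in siCtrl. It was the one member with a negative log2 fold change, -0.20 ± 0.17 (SE), at an adjusted p of 0.512 in limma. With 131 to 181 reads per library, Gata3 was also the member with the largest counting error. Of the genes beside these factors, Gm38708 at Gata2 was at -0.65 (adjusted p = 0.190), 4930412O13Rik at Gata3 at 0.19 (adjusted p = 0.588) and 2610027K06Rik at Tbx2 at -0.87 (adjusted p = 0.115, limma), while 9230102O04Rik and Gm13256 at Gata3 had at most 5 reads.

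**Figure D3:**
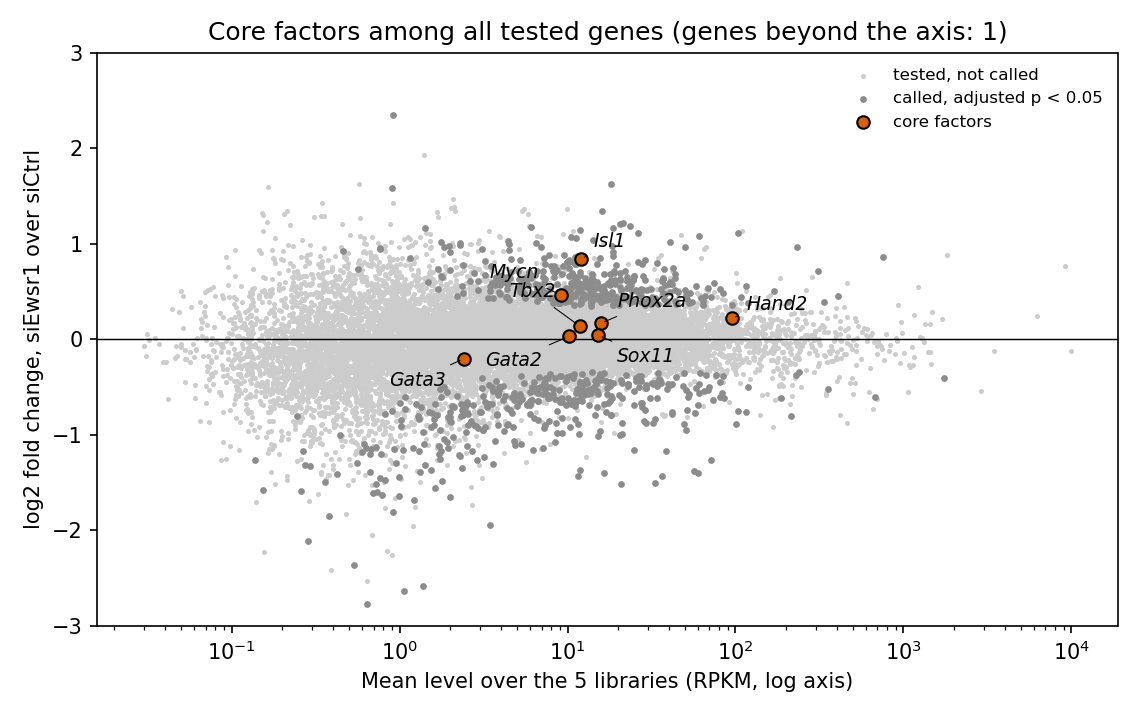
log2 fold change, siEwsr1 over siCtrl, against mean level (RPKM, log axis) for the 14868 tested genes; dark grey points were called at an adjusted p under 0.05 and orange points are the core factors. Isl1 and Mycn lie among the genes called higher, and the other 6 lie among genes not called.

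To set the 8 factors in their circuit, 8 lists of related genes were read from the same fit. They held 168 different gene symbols besides the members, of which 123 were tested. Of these 6 rose and 1 fell, a called share of 5.69% beside 5.13% over all tested genes, and their median log2 fold change was 0.00. At an unadjusted p under 0.05 in the same limma fit 22 were higher and 10 lower. Over all 14868 tested genes 1665 were higher and 1628 lower at that threshold, which also stands beside the list counts below. With limma-voom 6 of the listed genes were called higher and 2 lower. Without siEwsr1 replicate 3, the library between the groups, 24 of the 121 then tested were called higher and 19 lower. In that fit 1873 of all 14519 tested genes were called higher and 1887 lower, which stands beside its list counts below.

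Among 25 other factors of the core circuit 18 were tested, 2 rose and 0 fell (5 higher and 1 lower at an unadjusted p under 0.05 in limma), with a median log2 fold change of 0.06. With siEwsr1 replicate 3 left out, 5 of the 17 then tested were called higher and 3 lower. The 2 that rose in the main fit were Insm1, a zinc-finger factor of neuroendocrine progenitors, and Meis2, a TALE homeodomain partner of Hox and Pbx proteins. Insm1 had 12.4, 13.2 and 11.4 RPKM in siEwsr1 and 8.53 and 8.38 RPKM in siCtrl (log2 fold change 0.56 ± 0.11, SE, adjusted p = 0.0233, limma). Meis2 had 4.44, 4.46 and 3.82 RPKM in siEwsr1 and 2.86 and 2.87 RPKM in siCtrl (0.57 ± 0.11, adjusted p = 0.0187). Sox4, the SoxC paralog of Sox11 and the most abundant of the list, was at 0.27 ± 0.12 (adjusted p = 0.205, limma). Tfap2a, Klf13 and Rfx6 were listed at 0 in every library, and Hand1, Tbx3, Dach1 and Prox1 did not pass the filter.

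None of the 21 tested cofactors and partners was called in either direction by limma, while without siEwsr1 replicate 3 there were 3 higher and 2 lower. At an unadjusted p under 0.05, 3 were higher and 1 lower, and the median log2 fold change was 0.05. The smallest adjusted p was that of Mga, a Max partner, at 0.35 ± 0.10 (adjusted p = 0.0763, limma, and 0.000121 without siEwsr1 replicate 3). Max was at -0.10 ± 0.09, Ldb1, the bridging protein of Isl1 and of Gata complexes, at -0.08 ± 0.13, and Mlx, the most abundant of the list, at -0.11 ± 0.09.

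Of 13 tested regulators of MYCN protein and mRNA 2 rose and 0 fell (2 higher and 1 lower at an unadjusted p under 0.05 in limma), with a median of 0.00. With siEwsr1 replicate 3 left out, 4 were called higher and 3 lower. Lin28a, which blocks maturation of let-7 miRNAs, had 55.3, 54.7 and 60.2 RPKM in siEwsr1 and 43.3 and 42.7 RPKM in siCtrl (0.42 ± 0.09, adjusted p = 0.0223, limma). Cdk7, the kinase of TFIIH, had 36.4, 34.1 and 32.2 RPKM in siEwsr1 and 26.3 and 26.9 RPKM in siCtrl (0.38 ± 0.09, adjusted p = 0.0428). The read numbers of Lin28a and Cdk7 each end in 0 in 1 library, where the decimal position was settled as for Hand2. At the lower position both would lose their call, and Cdk7 would stand at -0.71. Aurka, which shields MYCN from degradation, was at 0.00 ± 0.09 and Lin28b, the paralog of Lin28a, at -0.27 ± 0.10, neither called.

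Of 22 tested MYC target genes 1 rose and 0 fell (4 higher and 0 lower at an unadjusted p under 0.05 in limma), with a median log2 fold change of 0.08. With siEwsr1 replicate 3 left out, 7 were called higher and 2 lower. The gene called in the main fit was Mcm7, a subunit of the replicative helicase. Its level was 59.2, 54.0 and 68.1 RPKM in siEwsr1 and 42.5 and 44.5 RPKM in siCtrl (0.49 ± 0.10, adjusted p = 0.0239, limma). It too has 1 library whose reads end in 0, and at the lower position it would stand at -0.61 and lose its call. Odc1, the first enzyme of polyamine synthesis and a classical MYC target, was at 0.28 ± 0.08 (adjusted p = 0.0697). Npm1, a nucleolar chaperone and the most abundant of the list at 1495 ± 143 RPKM in siEwsr1 and 1350 ± 7.66 RPKM in siCtrl (SD), was at 0.17 ± 0.10 (adjusted p = 0.375). The decimal position of Ldha and Rcl1 could not be settled, so these were left out. Myc, the paralog of Mycn that most growing cells use, was at 22.6 ± 1.57 RPKM in siEwsr1 (SD, n = 3) and 24.9 ± 3.30 RPKM in siCtrl (SD, n = 2) and was not called (-0.12 ± 0.11, SE, adjusted p = 0.582, limma).

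Around Mycn on chromosome 12, a region co-amplified with MYCN in some human tumours, 3 genes were tested and none was called by limma, while without siEwsr1 replicate 3 there were 1 higher and 1 lower. At an unadjusted p under 0.05, 1 was higher and 1 lower. Ddx1, an RNA helicase gene, had 100.0, 99.6 and 94.4 RPKM in siEwsr1 and 80.8 and 80.3 RPKM in siCtrl (0.30 ± 0.08, adjusted p = 0.0669, limma, and 0.000612 without siEwsr1 replicate 3). Nbas, a gene of vesicle transport, was at -0.29 ± 0.09 (adjusted p = 0.0904), and Fam49a was near 0 RPKM.

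Of 22 tested noradrenergic and cholinergic effector genes 1 rose and 0 fell (5 higher and 3 lower at an unadjusted p under 0.05 in limma), with a median of -0.08. With limma-voom 1 fell, and without siEwsr1 replicate 3 there were 3 higher and 4 lower. Chgb, a granin of secretory vesicles and the gene called, had 451.7, 449.0 and 462.8 RPKM in siEwsr1 and 347.7 and 328.3 RPKM in siCtrl (0.45 ± 0.08, adjusted p = 0.0138, limma). Dbh, which makes noradrenaline and is a target of Phox2a and Hand2, was at 0.30 ± 0.12 (adjusted p = 0.166). Prph, the neuronal intermediate filament peripherin, was at -0.39 ± 0.10 (adjusted p = 0.0578). Slc18a1, a vesicular monoamine transporter, was low, at 0.275 ± 0.00933 RPKM in siEwsr1 (SD, n = 3) and 0.589 ± 0.0311 RPKM in siCtrl (SD, n = 2) (-0.86 ± 0.24 on the log2 scale, adjusted p = 0.0691, limma). The transporter Slc6a2 was listed at 0 in every library.

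Of 19 paralogs of the members 7 were tested, and 0 were called by limma (2 higher and 0 lower at an unadjusted p under 0.05), while without siEwsr1 replicate 3 Tbx20 and Sox4 were called higher, at adjusted p-values of 0.000484 and 0.00103. Their median log2 fold change was 0.14. Gata4 was at 13.8 ± 0.762 RPKM in siEwsr1 and 15.3 ± 0.140 RPKM in siCtrl (SD), above the level of Gata2 in both groups, with a log2 fold change of -0.12 ± 0.09 (SE). Tbx20, a cardiac and motor neuron factor, was at 14.9 ± 0.995 RPKM in siEwsr1 and 12.0 ± 0.689 RPKM in siCtrl (0.34 ± 0.10, adjusted p = 0.0792, limma). Isl2, Tbx4 and Sox12 were at -0.08, 0.15 and 0.14, with adjusted p from 0.673 to 0.880 in limma.

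Of 20 tested factors of the mesenchymal state, the alternative identity of neuroblastoma cells, 0 rose and 1 fell (1 higher and 3 lower at an unadjusted p under 0.05 in limma), with a median log2 fold change of -0.07. With siEwsr1 replicate 3 left out, 0 of the 19 then tested were called higher and 4 lower. Vim, the intermediate filament vimentin, had 203.8, 203.6 and 205.4 RPKM in siEwsr1 and 258.4 and 280.2 RPKM in siCtrl (-0.37 ± 0.08, adjusted p = 0.0283, limma). Beside this, Acta2, smooth muscle actin and one of the fibroblast and mural markers, fell to 0.784, 0.921 and 0.868 RPKM in siEwsr1, against 2.89 and 2.63 RPKM in siCtrl (-1.56 ± 0.23, adjusted p = 0.00562). Of these 9 markers 4 were tested, 3 of them with negative fold changes. Their summed level was 24.6 to 31.4 RPKM in siEwsr1 and 36.7 to 36.9 RPKM in siCtrl. Most of this sum is Fbln1, at 25.7 ± 3.77 RPKM in siEwsr1 (SD, n = 3) and 33.5 ± 0.0145 RPKM in siCtrl (SD, n = 2). Fbln1 was not called (-0.37 ± 0.11, SE, adjusted p = 0.0842, limma), so the sum does not show a fall across these markers. The part of the lower Acta2 and summed levels in the results on the core factors was not tested. Twist1 was listed at 0 in every library.

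**Figure D4:**
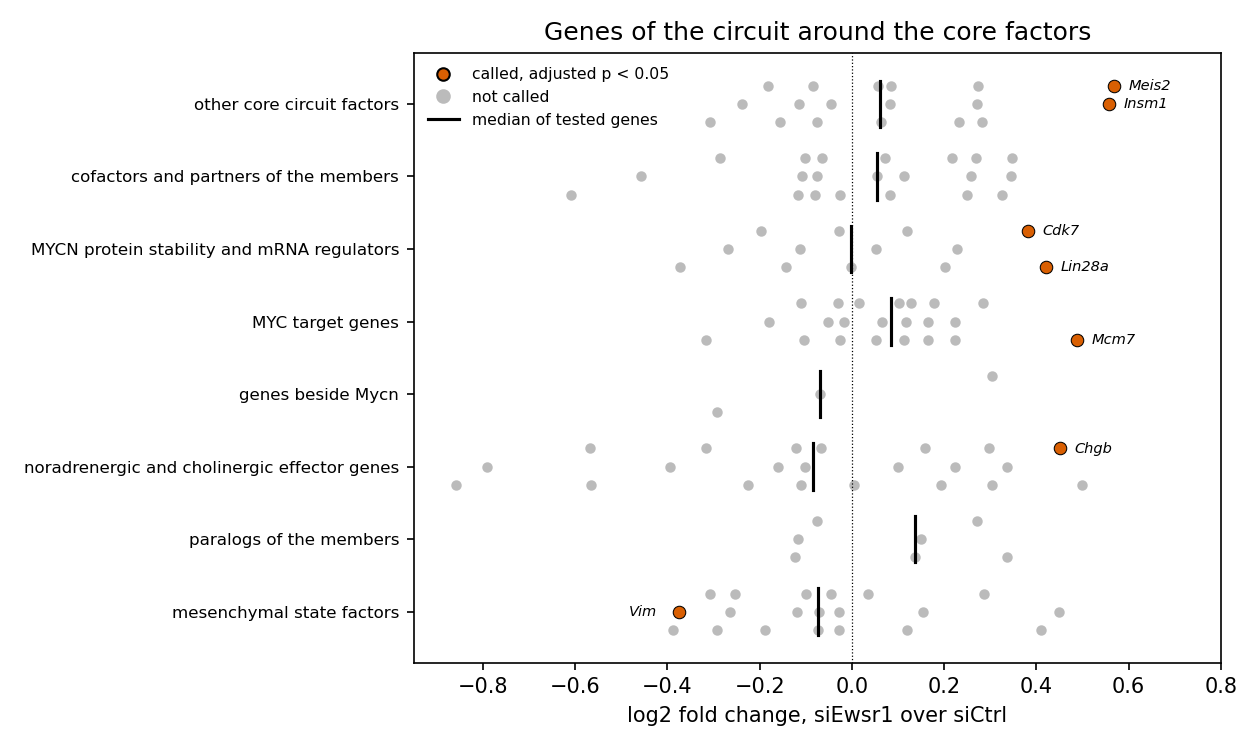
log2 fold change, siEwsr1 over siCtrl, of each tested gene in the 8 circuit lists, with called genes in orange and named and the list median as a black bar. Insm1 and Meis2 stand at 0.56 and 0.57, and the list medians lie between -0.08 and 0.14.

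The genes whose 5 library values ran most like each member were named by the smallest root mean square difference of mean-centred log2 values. For Isl1 these were Sdcbp, Znrf2 and Trappc2, at 0.0195 to 0.0445 log2 units, beside a range of 1.01 log2 units in Isl1 itself. For Mycn they were Zfp629, Cdc45 and Cpped1, at 0.0181 to 0.0264. Hand2 ran most like 4930522L14Rik, Brd7 and Rsad1, Phox2a like Cdc6, Trim39 and Sp140, and Tbx2 like Clu, Ap5z1 and Agrn. Sox11 ran most like Piga, Fyttd1 and Eif4e, Gata2 like Ankrd24, Elac2 and Nr2f6, and Gata3 like Spint1, B9d2 and Tsku. With 5 libraries and many genes, such nearness is a description only. No member was among the 3 nearest genes of another.

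**Figure D5:**
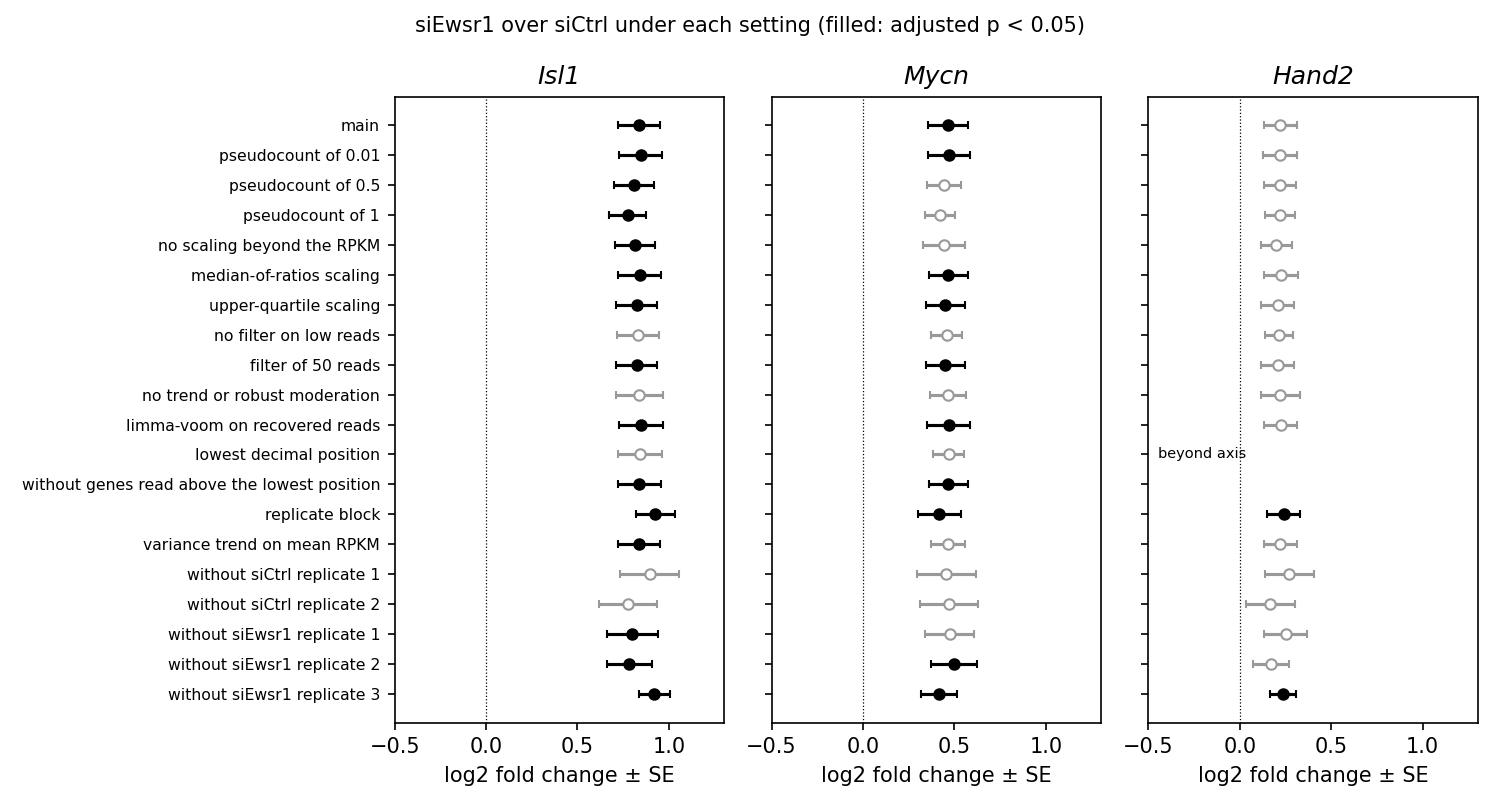
log2 fold change ± SE, siEwsr1 over siCtrl, of Isl1, Mycn and Hand2 under the main setting and each alternative; filled points have an adjusted p under 0.05. Isl1 stays between 0.77 and 0.93 and Mycn between 0.41 and 0.50 throughout; Hand2 at the lowest decimal position, -1.98, lies beyond the axis, and Hand2 has no value without genes read above that position.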

How the data were processed

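The authors deposited 1 table per library, and no header names its unit. STAR 2.5.2b, featureCounts 1.5.1 and edgeR were used on GRCm38, per the submitters' processing notes; annotation, strand setting and treatment of multi-mapping reads: not given in the sources used here. Deposited values behave as RPKM, but values of 1 or more lost their decimal point, so their unit was recorded as other. Each position was restored from the rule that RPKM, exonic length (GENCODE M21) and counted reads give a whole number of reads (within 1e-06), without group labels; 98.5% to 98.6% of intact values were whole, and 151 of 27255 genes above 0 were left out at odds under 20. In simulated data for siEwsr1 against siCtrl, over 5861 genes, 5623 of 5625 kept unchanged genes were read correctly, but 28 of 48 genes changed 4-fold were kept, and 14 of 41 kept genes changed 10-fold were read correctly, so large changes may be missed.

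No count model was used; limma 3.58.1 (R 4.3.3) was fitted to log2(RPKM + 0.1) after trimmed-mean scaling, for genes that reach 10 reads, scaled to the median library size, in 2 or more libraries, with robust moderation, a variance trend on mean log2 reads and Benjamini-Hochberg adjustment over all genes. In data simulated for the same comparison over 14297 genes, it called 26 of 50 genes changed 1.5-fold and 46 of 49 changed 2-fold, with 7 unchanged genes called; these genes varied independently. The log2 scale with 0.1 added understates changes of low genes. All members are named. List genes are named if called, if their adjusted p is the smallest, or if most abundant, with paralogs, neighbours and nearest genes added. Myc, Max, Ldb1, Aurka, Lin28b, Odc1, Dbh, Nbas, Slc18a1, Th, Acta2 and Fbln1 were added after their values were seen. Some genes listed at 0, near 0 or not tested are named too. The members and lists were chosen with earlier results of these data known, and some list genes are not reported here. Sequences are from GENCODE M21 transcripts and RefSeq promoters.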

Additional observations from a re-analysis of the deposited data

How the results depend on the processing

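The main limits are 2 controls, a siEwsr1 library between the groups, and decimal positions that for Hand2, Sox11, Ewsr1, Lin28a, Cdk7, Mcm7 and other genes with reads ending in 0 rest on the agreement of libraries. Of 19 alternatives, Isl1 kept its call in 14 and Mycn in 9; Phox2a and Gata3 were uncalled with the same sign in all 19, and no member was called lower in any. Genes called higher and lower were 216 and 252 with a pseudocount of 0.5, 167 and 200 with 1, 20 and 39 without a filter, 49 and 8 at the lowest decimal position, and 115 and 139 with the variance trend on mean RPKM, an alternative chosen after seeing the data. Without trend or robust moderation limma called 0 and 0 (1313 and 1453 at an unadjusted p under 0.05). Leaving out 1 library gave 3 to 1873 genes higher and 3 to 1887 lower. The cause of these shifts was not tested.

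Members called higher numbered 1 with a pseudocount of 0.5 or 1, without scaling or with the RPKM trend, 0 without a filter, without moderation (2 at an unadjusted p under 0.05) or at the lowest position, and 0 to 3 with a library left out. Mycn lost its call at 0.45 (pseudocount 0.5), 0.42 (1), 0.44 (no scaling), 0.46 (no filter), 0.47 (no moderation), 0.47 (lowest position) and 0.47 (RPKM trend), and ranged from 0.41 to 0.50 with a library left out. Isl1 lost it at 0.83 (no filter), 0.84 (no moderation) and 0.84 (lowest position), and ranged from 0.78 to 0.92 with a library left out. With a library left out Hand2 ranged from 0.17 to 0.27, Gata2 from -0.078 to 0.10, Tbx2 from -0.041 to 0.29 and Sox11 from -0.041 to 0.14. At the lowest position the log2 fold change was -1.98 for Hand2, -1.03 for Sox11, 0.70 for Ewsr1, -1.92 for Sox4, -0.71 for Cdk7, -0.61 for Mcm7, -2.05 for Npm1 and -0.74 for Tbx20, since reads ending in 0 are then read 10-fold lower than in the main setting. Myc was between -0.27 and 0.032 with a library left out.

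Listed genes called higher numbered 3 with a pseudocount of 1, 2 at the lowest position, 3 without genes read above it (Lin28a, Cdk7 and Mcm7 are then not tested), 0 without a filter, without moderation or with the RPKM trend, and 0 to 24 with a library left out. Those called lower numbered 2 with a pseudocount of 0.01, a filter of 50 reads or limma-voom, 0 without a filter, without moderation, at the lowest position or with the RPKM trend, and 0 to 19 with a library left out. Of the other alternative values of single named genes, 283 kept their call or lack of one, 65 lost a call, 14 gained one and 7 changed sign.

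The shared replicate numbers were not shown to pair the libraries: same-numbered deviations correlated at 0.0271 (replicate 1) and -0.125 (replicate 2), with only 2 pairs. A replicate block gave 1620 genes higher and 1595 lower, 21 and 13 of the listed genes (3 and 1 cofactors, 1 and 1 beside Mycn, 2 and 0 paralogs, 3 and 1 effectors), and 3 members higher, with Hand2 at 0.24 (adjusted p = 0.0471, limma), Gata2 at -0.074 and Tbx2 at -0.036. It also sets siEwsr1 replicate 3 apart, as the only library of its number.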
